A study of Mus musculus with 19 samples.

Results

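Gabra6 encodes the α6 subunit of the GABA-A receptor, which in the brain is made chiefly by cerebellar granule cells. The genes described here are Gabra6 and the genes whose level followed it most closely from library to library, 150 in all of the 14443 genes with counts in RNA sequencing of mouse locus coeruleus tissue. They were chosen by their Pearson correlation with Gabra6 over all 19 libraries, computed on log2(CPM + 0.5), where CPM is the count scaled to a common library total. Symbols starting with Kcn, Scn, Cacn, Gri, Grm, Pcdh, Cdh, Col or Lam, 286 genes in all, were left out of the choice. The correlations of these genes with Gabra6 therefore describe the choice and are not tested, and the group labels took no part in it.

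The study compared ABC-Ctrl mice, labelled WT, with ABC-CnB1KO mice, which lack CnB1, the regulatory subunit of the phosphatase calcineurin. Both genotypes had received AAV-hSyn-Cre, a virus that expresses the Cre recombinase from a neuronal promoter, and were sampled 4 weeks after that injection. They had either slept normally (S6) or been kept awake for 6 h (SD6), which gave 4 libraries of WT_S6 and 5 each of WT_SD6, CnB1KO_S6 and CnB1KO_SD6. Frozen brains were cut at 200 µm, the locus coeruleus was dissected from the slices, and poly(A) RNA was sequenced without strand information, each library being labelled a biological replicate. The labels give no age, sex or batch. Libraries are named below by group and by the library number in the column heads, which is not the replicate number of the labels.

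The locus coeruleus lies in the dorsal pons, beside the fourth ventricle and under the cerebellum, so a dissection from thick slices can take in cerebellar tissue. The cerebellar cortex holds densely packed granule cells, which are glutamatergic and send parallel fibres to the Purkinje cells, its GABAergic output neurons. Bergmann glia, astrocytes whose fibres run along the Purkinje cell dendrites, sit in the same layer as the Purkinje cell bodies. In tissue RNA, fewer cells of a type and less RNA per cell cannot be told apart.

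Total counts ran from 3887298 (CnB1KO_S6 library 13) to 7903253 (WT_SD6 library 10). The dissected nucleus was present in every library: none of the 12 noradrenergic genes measured was at 0, and Dbh, which encodes dopamine beta-hydroxylase, ran from 111 CPM to 269 CPM. The 150 genes together took 0.526% of the counts in CnB1KO_SD6 library 20 and 1.81% in WT_SD6 library 8, the lowest and highest shares.

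The label of a cerebellar granule cell set was checked against lists of marker genes. Of 36 granule cell markers measured, 17 were among the 150 genes, and of 35 Purkinje cell markers, 18 were. Of 13 Bergmann glia markers, 2 were, Gdf10 and Vim. No marker of noradrenergic neurons, oligodendrocytes, astrocytes, microglia or endothelium was among them, and neither was one of molecular layer interneurons, of Golgi and unipolar brush cells or of cerebellar nuclei. The set thus holds granule and Purkinje genes in like number, and 113 of the 150 genes stand in none of the 3 lists it draws on. A second set of 150 built in the same way from Dbh shared 0 genes with it.

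Promoters were examined because the genes move together. RefSeq gave a window of 250 bases before to 50 after the start (GRCm38.p6) for 111 of the 150 genes. The 250 bases before the start are shown for the gene with the highest correlation in each of the 3 cell type lists. They are Gabra6 for granule cells (chr11:42321073-42321322, minus strand), Nrk, a protein kinase gene of the Purkinje list (chrX:138914180-138914429, plus strand), and Gdf10, a growth factor gene of Bergmann glia (chr14:33923337-33923586, plus strand). Capitals mark an NFI core (TTGGCA, here on the opposite strand) in Gabra6 and the Zic core (CAGCAGG) in the others, on the opposite strand in Nrk and on the gene's own strand in Gdf10.
Gabra6: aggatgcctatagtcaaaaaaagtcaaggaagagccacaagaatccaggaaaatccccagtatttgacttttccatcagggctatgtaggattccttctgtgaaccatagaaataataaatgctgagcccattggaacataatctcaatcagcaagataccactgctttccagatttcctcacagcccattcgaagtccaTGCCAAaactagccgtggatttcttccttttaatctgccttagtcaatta
Nrk: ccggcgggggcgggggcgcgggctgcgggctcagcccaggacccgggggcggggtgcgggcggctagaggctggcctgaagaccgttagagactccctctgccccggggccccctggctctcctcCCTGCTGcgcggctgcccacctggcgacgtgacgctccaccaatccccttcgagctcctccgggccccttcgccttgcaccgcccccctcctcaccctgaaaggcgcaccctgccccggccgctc
Gdf10: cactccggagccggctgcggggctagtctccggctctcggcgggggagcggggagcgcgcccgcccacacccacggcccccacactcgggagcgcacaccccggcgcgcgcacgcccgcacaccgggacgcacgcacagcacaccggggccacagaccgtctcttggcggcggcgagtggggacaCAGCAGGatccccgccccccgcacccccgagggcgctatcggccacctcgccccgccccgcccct

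NFI factors, Zic factors and NeuroD1 are transcription factors known in granule cells, and their short motifs were counted on both strands of the windows. The NFI core stood in 21.6% of the genes with a window, against 16.1% of all 27025 genes in the promoter table. The Zic core stood in 14.4% against 12%, and CAGATG, an E-box that NeuroD-type factors bind, in 23.4% against 19.2%. The general E-box CANNTG, which includes CAGATG, stood in 73.0% against 75%, the MEF2 site in 8.11% against 4.23%, and TATAAA in 8.11% against 15.7%. The full NFI site was in 0 of the 111 windows and in 0.044% of all. These are shares of letters found and carry no test. The promoter table includes genes without counts in this tissue, and a gene with several windows was counted if any of them held the motif.

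Gabra6 itself varied more between libraries than all but a few of the genes measured, ranking 3 of 14443 by the SD of its log2 level. In WT_S6 it stood at 25.7, 42.8, 136 and 112 CPM in libraries 1 to 4. In WT_SD6 it was 33.4, 121, 186, 145 and 2.15 CPM in libraries 6 to 10. In WT_SD6, 4 libraries lay within the WT_S6 range or above it, and library 10 lay below every WT_S6 library. In CnB1KO_S6 it was 61.3, 39.9, 4.37, 106 and 22.7 CPM in libraries 11 to 15. In CnB1KO_SD6 it was 132, 56.7, 38.4, 5.62 and 0.587 CPM in libraries 16 to 20. All 4 groups overlapped, and WT_SD6, CnB1KO_S6 and CnB1KO_SD6 each held libraries under 6 CPM and libraries over 100 CPM.

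In order, the group means were 97.6 ± 77.3 CPM (SD, n = 5) in WT_SD6 and 79.2 ± 53.3 CPM (SD, n = 4) in WT_S6. They were 46.9 ± 39.2 CPM (SD, n = 5) in CnB1KO_S6, with CnB1KO_SD6 last at 46.6 ± 52.9 CPM (SD, n = 5). Neighbours in the order of these means overlapped in range and differed by less than their SDs. Within a group the highest library exceeded the lowest 5.30-fold in WT_S6, 86.6-fold in WT_SD6 and 24.3-fold in CnB1KO_S6. In CnB1KO_SD6 the lowest library, library 20, held 3 counts of Gabra6, so its ratio of 224 has a 95% counting interval of 76.4 to 1089. In the deposited FPKM (fragments scaled for gene length and library total), the highest library had 66.5 FPKM of Gabra6 and library 20 is listed at 0.

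**Figure D1:**
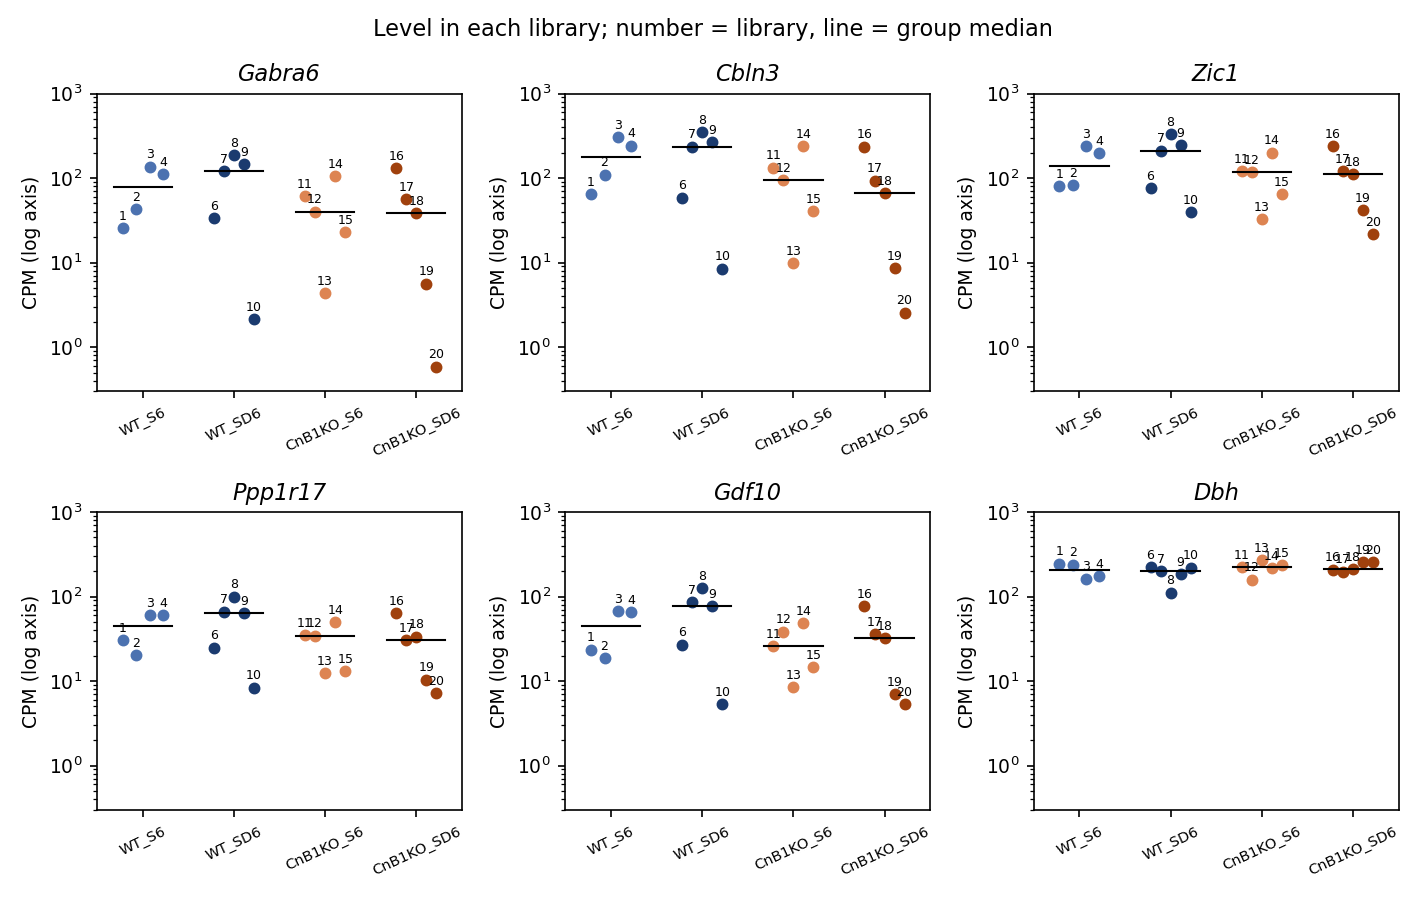
Level in CPM on a log axis of 5 genes of the set and of Dbh in each of the 19 libraries, by group; numbers are library numbers and lines are group medians. Gabra6 runs from 0.587 to 186 CPM with overlapping groups, while Dbh stays between 111 and 269 CPM.

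Granule cell genes were closest to Gabra6. Cbln3, which encodes a cerebellin secreted by granule cells, had r = 0.991 and ran from 2.54 to 348 CPM. Fat2, an atypical cadherin of granule cells, had r = 0.987 and ran from 3.52 to 650 CPM, and Gabrd, the receptor's δ subunit, had r = 0.967 and ran from 1.77 to 103 CPM. The slope of the log2 level of these genes on the log2 level of Gabra6, where 1 means proportional change, was 0.94 for Cbln3, 1.01 for Fat2 and 0.79 for Gabrd. Crtam, an immunoglobulin-family receptor in none of the lists, had a slope of 0.90 and r = 0.974.

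Cbln3 in single libraries shows the pattern. It stood at 64.9, 110, 305 and 242 CPM in WT_S6 and at 58.8, 234, 348, 263 and 8.48 CPM in WT_SD6. It stood at 133, 93.7, 9.78, 238 and 40.8 CPM in CnB1KO_S6 and at 235, 92.9, 66.0, 8.61 and 2.54 CPM in CnB1KO_SD6. The libraries under 10 CPM of Cbln3 were libraries 10, 13, 19 and 20, the same ones that held under 6 CPM of Gabra6.

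Of 24 transcription factors listed for granule cells, 10 were in the set. The zinc finger genes Zic1 (r = 0.969), Zic2 (0.944), Zic5 (0.928) and Zic4 (0.927) followed Gabra6, as did the basic helix-loop-helix genes Neurod1 (0.947) and Neurod2 (0.888). So did the homeobox genes Barhl2 (0.934), Barhl1 (0.873), En2 (0.837) and Pax6 (0.834). Their slopes were shallower than that of Cbln3, at 0.51 for Zic1, 0.57 for Neurod1, 0.26 for En2 and 0.30 for Pax6. Zic1 ran from 21.5 to 330 CPM and Neurod1 from 7.63 to 153 CPM. Extrapolated by a straight line to no Gabra6, Zic1 would keep 27.3% of its median level, Neurod1 11.4% and En2 60.6%. Barhl2 was at 0 counts in at least 1 library and at 33.8 CPM in the highest. Among the 14 outside the set Nfib reached r = 0.81, Eomes 0.80, Nfix 0.79 and Mef2c 0.73, and En1 had 0.11. Lhx9 (-0.10), Tlx3 (-0.37) and Meis2 (-0.71) had the opposite sign, and 21 of the 24 had a positive r.

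Some of these genes share loci. Zic1 and Zic4 lie on opposite strands of chromosome 9 with 3397 bases between their starts and overlap. Without strand information, reads from the stretch they share cannot be told apart. Zic2 and Zic5 lie on chromosome 14 with 9758 bases between their starts. Neurod1 lies inside the annotated span of Cerkl, a ceramide kinase-like gene, on the same strand of chromosome 2 (Neurod1 from 79452521 to 79456751, Cerkl from 79330543 to 79456785), so the low Cerkl counts (9.13 CPM at most) are uncertain. Cbln1 overlaps another gene of the set, a noncoding one, on the opposite strand of chromosome 8. In all, 147 of the 150 genes matched 1 gene of the GENCODE M21 annotation of GRCm38, 136 of them protein coding, on 20 chromosomes, and 71 overlapped a gene on the opposite strand.

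Receptor and ligand families split. Of 15 GABA-A receptor subunits measured, 2 were in the set, Gabra6 and Gabrd. Gabra4 (r = 0.77) and Gabrb2 (0.52), subunits of receptors in many neurons, followed it less closely, and Gabra2 (-0.39), Gabra3 (-0.56) and Gabra5 (-0.55) had the opposite sign. Of 13 cerebellins and partners, Cbln3 and Cbln1 were in the set, and Cbln2 (-0.43) and Cbln4 (-0.56) had the opposite sign. Cbln1, the cerebellin that links parallel fibres to Purkinje cells, had a slope of 0.13 and ran from 79.1 to 179 CPM, a far narrower range than Cbln3.

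Purkinje cell genes made up 18 of the set. Ppp1r17, an inhibitor of protein phosphatases found in Purkinje cells, had r = 0.947 with Gabra6, 0.992 with Car8, 0.988 with Gdf10 of the Bergmann list, 0.976 with Zic1 of the granule list and 0.964 with Pcp2 of its own. Car8, a carbonic anhydrase-related protein that binds the IP3 receptor, had r = 0.941 with Gabra6. Pcp2, a Purkinje cell regulator of G protein signalling, had r = 0.907, and Itpr1, the IP3 receptor itself, 0.907. The median correlation between pairs of the 18 Purkinje genes was 0.96, between pairs of the 17 granule genes 0.95, and across the lists 0.92, with ranges that overlapped. The genes share libraries and were chosen for likeness to one of them, so these values have no test.

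Ppp1r17 stood at 30.4, 20.2, 60.4 and 59.9 CPM in WT_S6 and at 24.8, 65.9, 99.5, 63.9 and 8.35 CPM in WT_SD6. It stood at 34.6, 34.3, 12.3, 49.8 and 13 CPM in CnB1KO_S6 and at 63.9, 30.4, 33.6, 10.4 and 7.24 CPM in CnB1KO_SD6. Library 8 was the highest for Ppp1r17 as for Gabra6 and Cbln3, and library 20 the lowest. Over the 19 libraries Ppp1r17 spanned a 13.7-fold range, Car8 a 6.92-fold range (53.0 to 367 CPM) and Itpr1 a 3.41-fold range (279 to 952 CPM).

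The slopes of Purkinje genes on Gabra6 ran from 0.14 to 0.61 with a median of 0.32. Those of the granule genes, Gabra6 itself included, ran from 0.13 to 1.01 with a median of 0.51, so the ranges overlapped, and the difference was not tested. The ratio of Ppp1r17 to Gabra6 counts was between 0.441 and 1.18 in 15 libraries. It was 3.88 in WT_SD6 library 10, 2.82 in CnB1KO_S6 library 13, 1.84 in CnB1KO_SD6 library 19 and 12.3 in CnB1KO_SD6 library 20. These are the 4 libraries lowest in Gabra6, and library 20 rests on 3 counts.

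Metabotropic glutamate and calcium release signalling was the function most fully held, with 11 of 20 listed genes in the set. Besides Ppp1r17, Car8, Pcp2 and Itpr1 these included Homer3 (r = 0.942), a scaffold protein of the synapse, Atp2a3 (0.904), a calcium pump of the endoplasmic reticulum, and Ryr1 (0.862), a calcium release channel. They also included the calcium buffer Calb1 (0.890), the inositol phosphatase Inpp5a (0.866) and the G protein regulator Rgs8 (0.856). By FPKM, a scale per gene length that allows levels of genes to be compared, Itpr1 (median 55.5), Pcp2 (44.0), Inpp5a (39.6) and Rgs8 (38.4) were among the most abundant. Other Purkinje genes of the set were Nrk (0.953), Arhgef33 (0.910), Cep76 (0.884), Stk17b (0.878), Lhx1 (0.876), Kitl (0.869), Rora (0.863) and Slc1a6 (0.858). Rora, a nuclear receptor required for Purkinje cells, had a slope of 0.14, and Slc1a6, their glutamate transporter, 0.17.

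Gdf10 and Vim were the Bergmann glia genes. Gdf10 ran from 5.28 to 125 CPM with a slope of 0.61, close to Nrk. Vim, an intermediate filament gene of many glial and vascular cells, ran from 42.7 to 93.4 CPM with a slope of 0.13. A2m (0.83), Gria4 (0.79) and Hopx (0.73) of the same list lay outside the set, as did Etv5 (0.38), Etv4 (0.31), Fabp7 (0.22) and Npy2r (-0.04).

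Other granule genes of the set were Il16 (r = 0.934), a cytokine precursor with a neuronal form in granule cells, and Chn2 (0.880), a GTPase-activating protein. Of the listed granule genes outside it, Cdh15 (0.84) would have entered but for its symbol. Dgkz (0.83), Nfib (0.81), Tmem266 (0.81), and Slc17a7 (0.80), the vesicular glutamate transporter of granule cells, came next. Of the Purkinje list, Skor2 reached 0.80 and Gng13 0.70. A positive r was seen for 31 of 36 granule markers and 31 of 35 Purkinje markers. The granule markers that went the other way were Meis2 (-0.71), Cntn1 (-0.48), Tlx3 (-0.37), Snap25 (-0.34) and Calb2 (-0.24). Those of the Purkinje list were Aldoc (-0.49), Necab2 (-0.41), Pcp4l1 (-0.40) and Foxp2 (-0.04). Why they did so was not tested.

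**Figure D2:**
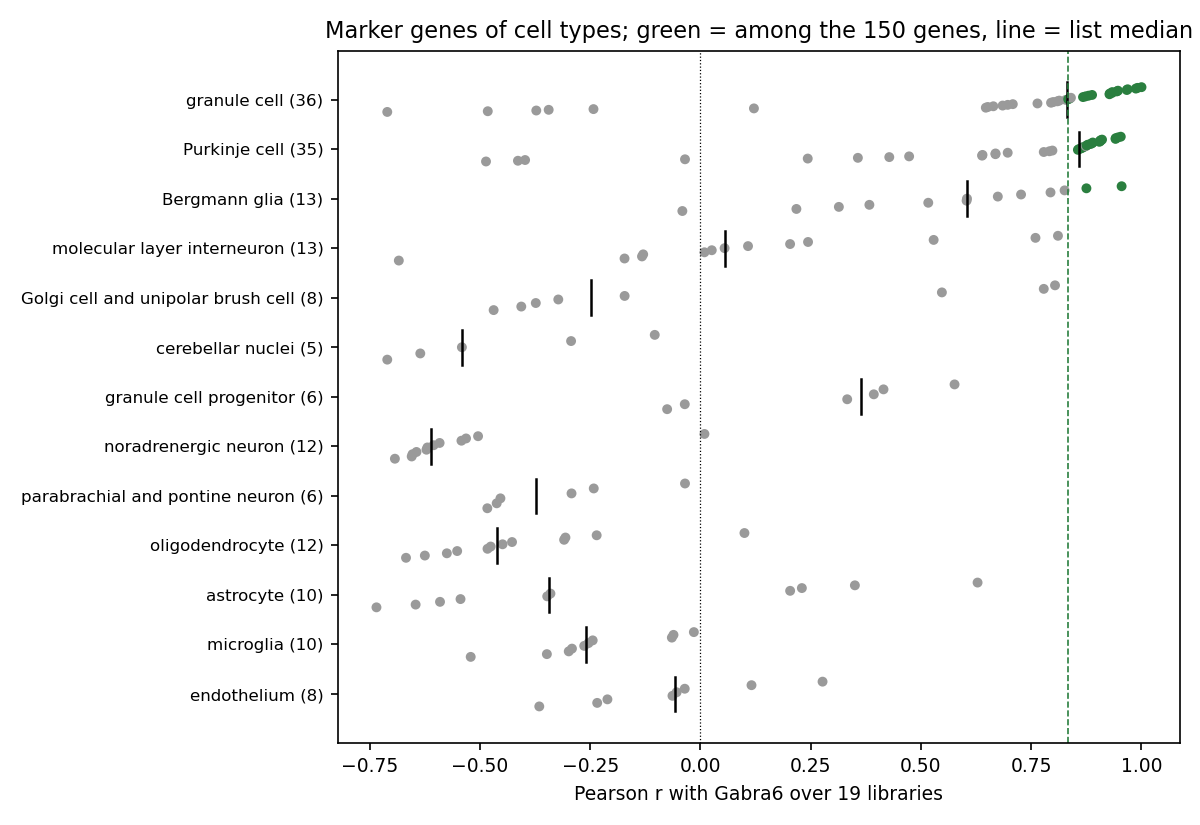
Pearson r with Gabra6 of each marker gene, by cell type list; green points are among the 150 genes, black lines are list medians and the dashed line is the r of the last gene taken, 0.832. Granule and Purkinje markers gather on the right, with list medians of 0.83 and 0.86, and the noradrenergic list has a median of -0.61.

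The 113 genes in none of the 3 lists had slopes from 0.05 to 0.93 with a median of 0.22. Of all 150 slopes, 24 were over 0.5, 67 were between 0.2 and 0.5, and 59 were under 0.2. Slk, Atrx, Pkd2, Fut8 and Sp3, widely expressed genes for a kinase, a chromatin remodeller, a cation channel, a fucosyltransferase and a transcription factor, had the lowest slopes, near 0.05. These were named after their values were seen. Atrx ran from 247 to 330 CPM, so a correlation of 0.842 went with a 1.34-fold range. For 78 genes a straight line against Gabra6 put over 50% of the median level at a Gabra6 level of 0, and for 33 it put under 20% there. With the lowest library set to at least 3 counts, 53 genes spanned a range of at least 10-fold and 18 one of less than 2-fold. A mean count under 100 held for 37 genes.

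**Figure D3:**
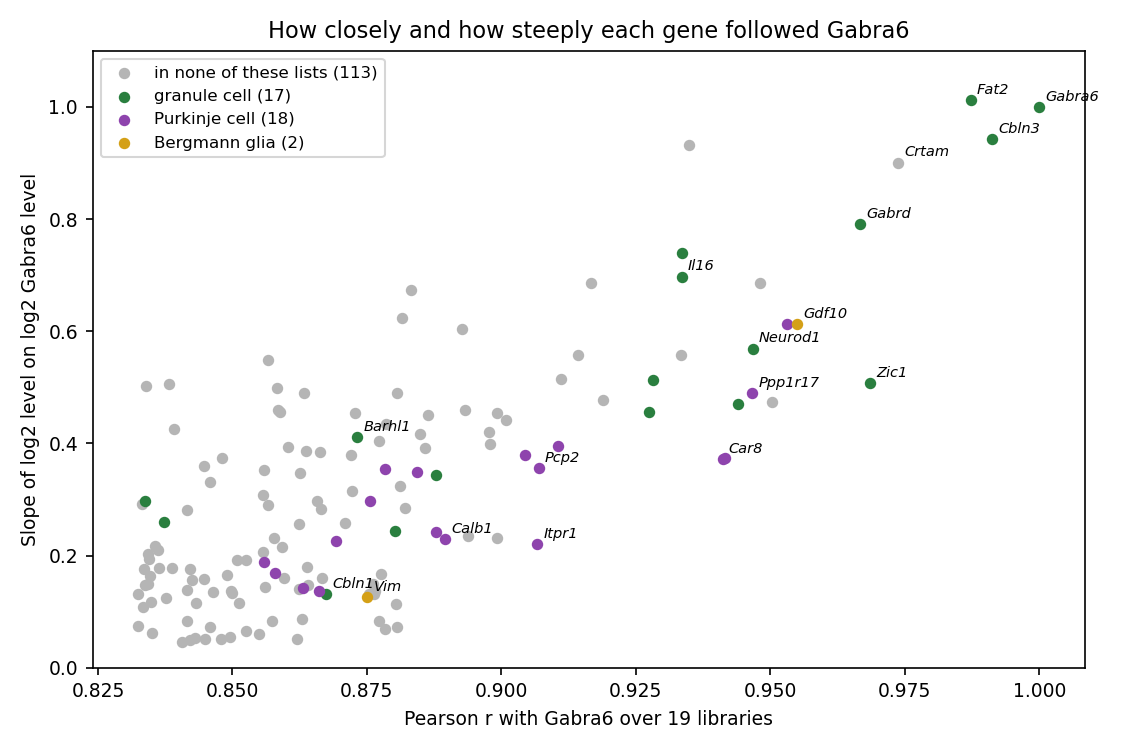
Slope of the log2 level of each of the 150 genes on the log2 level of Gabra6 against its Pearson r with Gabra6, over 19 libraries, coloured by cell type list. Cbln3, Fat2 and Crtam lie near a slope of 1, Purkinje genes lie at 0.14 to 0.61, and 59 genes lie under 0.2.

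The threshold fell in a dense part of the ranking. Among the last genes taken were Hs3st1 (0.833), Gprc5c (0.833) and Fnip1 (0.832), and the next outside were Car4 (0.832), Sulf1 (0.832) and Ntn1 (0.831). Above it the genes that the symbol rule left out included Kcnk10 (0.870), Grm4 (0.856), Cdh15 (0.840) and Col18a1 (0.836). The tail was 1-sided: 155 genes besides Gabra6 reached the r of the last gene taken, and 1 gene reached the same size with a negative sign. The median r of the set was 0.866 and that of all genes -0.01.

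Variation of the set lay mainly within the groups. Differences between the 4 groups made up 0.782% to 35.5% of a gene's variance, with a median of 13%, against a median of 22.3% over all genes. With group means removed, the correlation with Gabra6 ran from 0.817 upward with a median of 0.875. The edgeR dispersion, the squared relative spread between libraries of a group beyond counting, had a median of 0.156 for the set and 0.0063 for all genes. These were values of the same libraries that chose the genes.

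**Figure D4:**
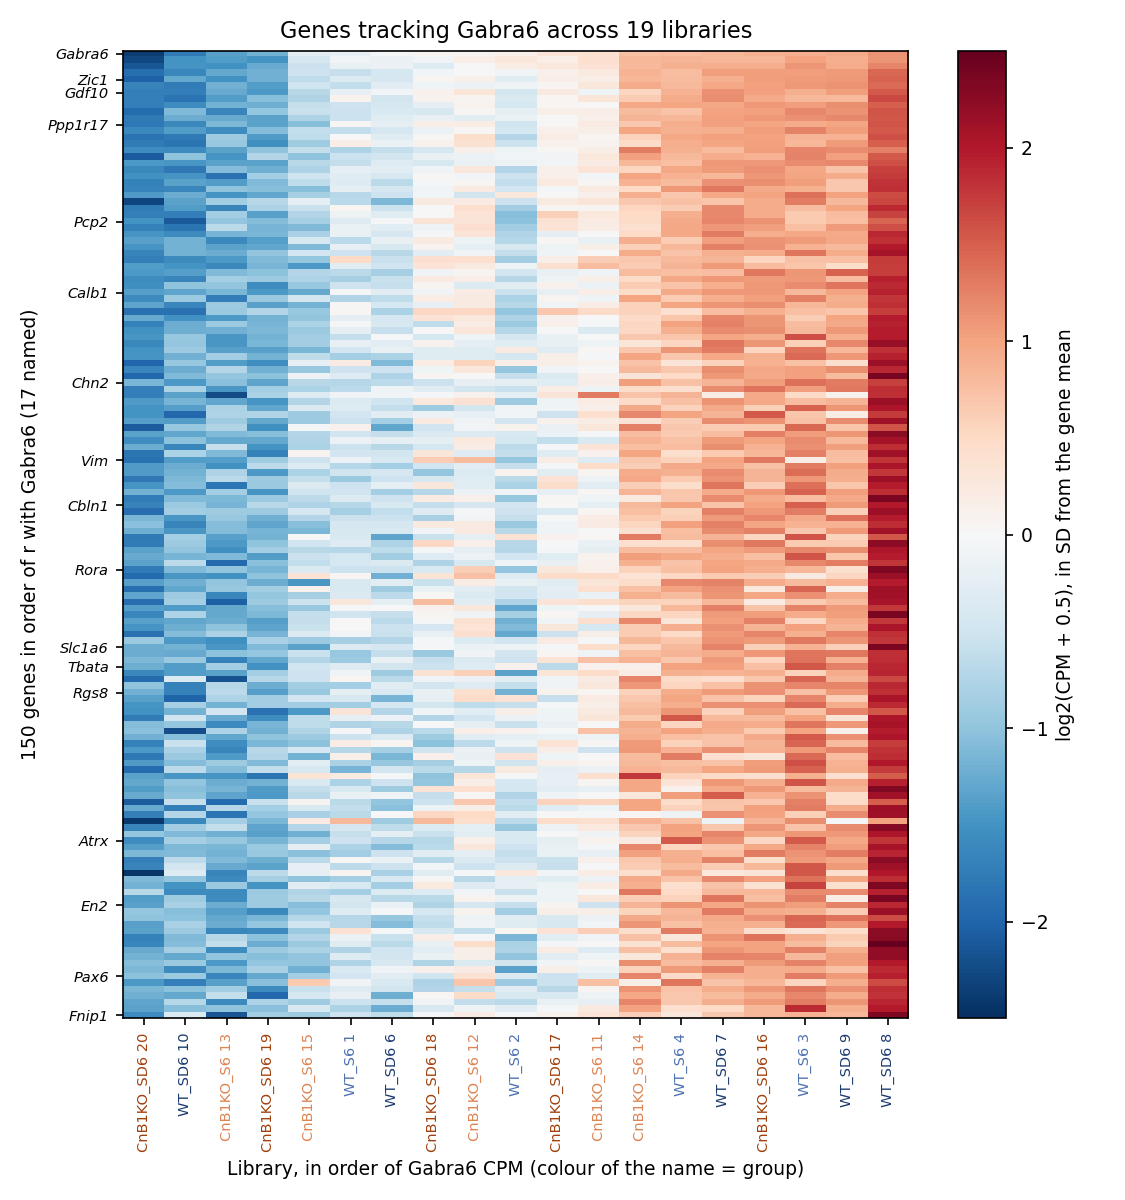
Level of the 150 genes (rows, in order of r with Gabra6) in the 19 libraries (columns, in order of Gabra6), as log2(CPM + 0.5) in SD from each gene's mean. Libraries 20, 10, 13 and 19 are low and library 8 is highest over most rows, and each group's libraries are spread along the order.

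Noradrenergic genes ran opposite to Gabra6, and they were not alone in this. The median r was -0.54 for the cerebellar nuclei list, -0.51 for mesencephalic trigeminal neurons and -0.37 for parabrachial and pontine neurons. In those lists 0 genes had a positive r. Cholinergic (-0.17) and serotonergic (0.06) neurons had weaker medians, and none of these lists was tested. Dbh was 244, 237, 163 and 173 CPM in WT_S6, and the libraries with the higher Gabra6 had the lower Dbh. In WT_SD6 it was 222, 198, 111, 183 and 219 CPM, lowest in library 8, where Gabra6 was highest. It was 223, 159, 269, 218 and 237 CPM in CnB1KO_S6 and 207, 198, 211, 257 and 257 CPM in CnB1KO_SD6. Over the 19 libraries Pearson's r of Dbh with Gabra6 was -0.64 (permutation p = 0.00376, adjusted over 6 relations 0.0176) and Spearman's rho was -0.77 (permutation p = 0.00022, adjusted 6.6e-04). Without libraries 20 and 10, the 2 farthest from the median of Gabra6, r was -0.70, and with group means removed it was -0.63.

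The mean log2 level of the 12 noradrenergic genes gave r = -0.62 (permutation p = 0.00585, adjusted 0.0176). Of these genes 11 had a negative r, with Tfap2b at 0.01. The oligodendrocyte list (r = -0.39, adjusted permutation p = 0.147), the astrocyte list (-0.36, adjusted permutation p = 0.149) and the microglia list (-0.26, adjusted permutation p = 0.269) did not pass. Their rho was -0.50 (adjusted permutation p = 0.0573), -0.40 (0.112) and -0.44 (0.0899) in that order. Without the same 2 libraries r was -0.71 for the oligodendrocyte list, -0.35 for the astrocyte list, -0.50 for the microglia list and -0.61 for the noradrenergic list. The log2 library total gave r = 0.42 (adjusted permutation p = 0.142), and 0.65 without the same 2 libraries, with rho at 0.26 (adjusted permutation p = 0.278). The relation did not pass, and the part of depth in the set was not tested.

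Whether the set differed by group was tested for each gene with edgeR's quasi-likelihood test over all 14443 genes and the Benjamini-Hochberg adjustment, at an adjusted p under 0.05. None of the 150 genes passed in any of 7 comparisons. With limma voom the count was also 0 in each, and with DESeq2 it was 0 in 6 comparisons and 1 in the average genotype difference. Every gene follows Gabra6 by choice, so the 150 results of a comparison are not independent of one another.

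After deprivation in WT, 132 of the 150 fitted changes were positive and 18 negative, with a median log2 change of 0.20, and 0.001 over all genes. Of all genes 1.14% passed, and at an unadjusted p under 0.05 the share was 11.6% of all genes and 0 of the 150. Gabra6 changed by 0.29 on the log2 scale (95% interval -1.53 to 2.11, adjusted p = 0.954 by edgeR). Cbln3 changed by 0.02, Ppp1r17 by 0.29 and Gdf10 by 0.54, with adjusted p by edgeR of 0.866 or more. Without WT_SD6 library 8, the library highest in Gabra6, 45 of the 150 changes were positive and the median was -0.05. It was 0.08 without WT_S6 library 1 or 2, 0.32 without library 4, 0.43 without library 3, 0.36 without WT_SD6 library 6, 0.43 without library 10 and 0.07 with limma voom. Krt25, a keratin gene, had the smallest p (log2 change 1.08, adjusted p = 0.470 by edgeR), followed by Fam107b (0.54) and Ddah2 (-0.25).

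After deprivation in CnB1KO, 41 changes were positive and 109 negative, with a median of -0.05, and -0.01 over all genes. Of all genes 0.692% passed, and 9.69% had an unadjusted p under 0.05, against 0 of the 150. Gabra6 changed by -0.04 (95% interval -1.87 to 1.80). Fut8 (-0.15, adjusted p = 0.523 by edgeR), Ccdc74a (-0.28) and Vps37b (-0.32) had the smallest p. The median was 0.10 without CnB1KO_S6 library 14, 0.04 without CnB1KO_SD6 library 19 and 0.06 without CnB1KO_SD6 library 20.

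In CnB1KO against WT after sleep, 144 of the 150 log2 differences were negative, with a median of -0.25, and 0.01 over all genes. Of all genes 0.0485% passed, and 10.1% had an unadjusted p under 0.05, against 0 of the 150. Gabra6 differed by -0.71 (95% interval -2.59 to 1.16, adjusted p = 0.811 by edgeR). Tbata (-1.61, adjusted p = 0.535 by edgeR), the long noncoding RNA Mirt1 (-1.45) and Tent2 (-0.15) had the smallest p. The median of the set rested on single libraries, being -0.07 without WT_S6 library 3, with 106 of the differences negative, and -0.43 without CnB1KO_S6 library 14. It was -0.39, -0.40 and -0.16 without WT_S6 libraries 1, 2 and 4, and -0.16 without CnB1KO_S6 library 13.

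After deprivation all but 1 of the 150 genotype differences were negative, with a median of -0.58, and 0.01 over all genes. Of all genes 0.132% passed, and 15.2% had an unadjusted p under 0.05, as did 8 of the 150 (5.33%). Gabra6 differed by -1.05 (95% interval -2.82 to 0.73, adjusted p = 0.549 by edgeR), Cbln3 by -1.16, Neurod1 by -1.07 and Ppp1r17 by -0.83. Inpp1, an inositol phosphatase gene (-0.32, adjusted p = 0.210 by edgeR), Mirt1 (-2.10) and Tbata (-2.01) had the smallest p. The count of 8 rested on single libraries, being 107 without CnB1KO_SD6 library 16, 98 without WT_SD6 library 10, 42 without WT_SD6 library 6 and 1 without WT_SD6 library 8. Without library 7, 9, 11, 12, 17, 18, 19 or 20 it was 2 to 5. The median was -0.28 without library 8. None of those passed the adjustment.

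The interaction, the deprivation change in CnB1KO less that in WT, had a median of -0.28 over the set and -0.01 over all genes. It passed for 0% of all genes, at 1.99% with an unadjusted p under 0.05 and 0 of the 150, and Gabra6 had -0.33 (95% interval -2.91 to 2.25). Without WT_SD6 library 8 the interaction had a median of 0.0063 over the set. The deprivation change averaged over genotypes had a median of 0.07, with 4.69% of all genes passing and 17.2% at an unadjusted p under 0.05, against 0 of the 150. Gabra6 stood at 0.13 there (95% interval -1.16 to 1.42). The median of the set in that average turned to -0.05 without WT_SD6 library 8, to -0.06 without CnB1KO_SD6 library 16 and to -0.04 with limma voom.

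The genotype difference averaged over sleep states was negative for all 150 genes in the edgeR fit, with a median of -0.42, and 0.01 over all genes. Of all genes 3.09% passed, and 23.1% had an unadjusted p under 0.05, as did 18 of the 150 (12%). That count was 81 without WT_SD6 library 10 or CnB1KO_SD6 library 16 and 3 without WT_SD6 library 8, where the median was -0.28. Without library 1, 2, 6 or 14 it was 31 to 48, and without library 3, 4, 7, 9, 12, 13, 15, 18, 19 or 20 it was 4 to 11. Gabra6 stood at -0.88 (95% interval -2.17 to 0.41, adjusted p = 0.392 by edgeR), Zic1 at -0.61, Neurod1 at -0.87, Gdf10 at -0.83 and Itpr1 at -0.28. A shared sign follows from the common course of the genes and counts as 1 observation. The interval of Gabra6 reaches from a 4.50-fold lower to a 1.33-fold higher level in CnB1KO on the fitted scale.

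Tbata (-1.81, adjusted p = 0.0815 by edgeR) and Mirt1 (-1.77, adjusted p = 0.0828 by edgeR) were nearest to passing, with Inpp1 next (-0.22, adjusted p = 0.110 by edgeR). Tbata, a gene known from testis, brain and thymus, stood at 1.6, 2.64, 11.7 and 6.76 CPM in WT_S6 and at 1.34, 6.9, 16.3, 8.74 and 0.253 CPM in WT_SD6. It stood at 2.62, 1.6, 0.772, 2.67 and 1.26 CPM in CnB1KO_S6 and at 5.20, 1.0, 1.21, 0.176 and 0.391 CPM in CnB1KO_SD6. The groups overlapped. In each of them Tbata was highest in the library with the highest Gabra6, narrowly so in CnB1KO_S6 (2.67 against 2.62 CPM). Tbata was chosen for following Gabra6 over these libraries, so this match describes the choice and was not tested. Tbata passed with DESeq2 (adjusted p = 0.0416). Without WT_SD6 library 10, the WT library lowest in Gabra6, Tbata (adjusted p = 0.0361 by edgeR), Mirt1 (0.0440) and Inpp1 (0.0480) passed. Without CnB1KO_SD6 library 16, Tbata (0.0289) and Mirt1 (0.0406) passed, and without CnB1KO_S6 library 14, Mirt1 (0.0497) did.

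**Figure D5:**
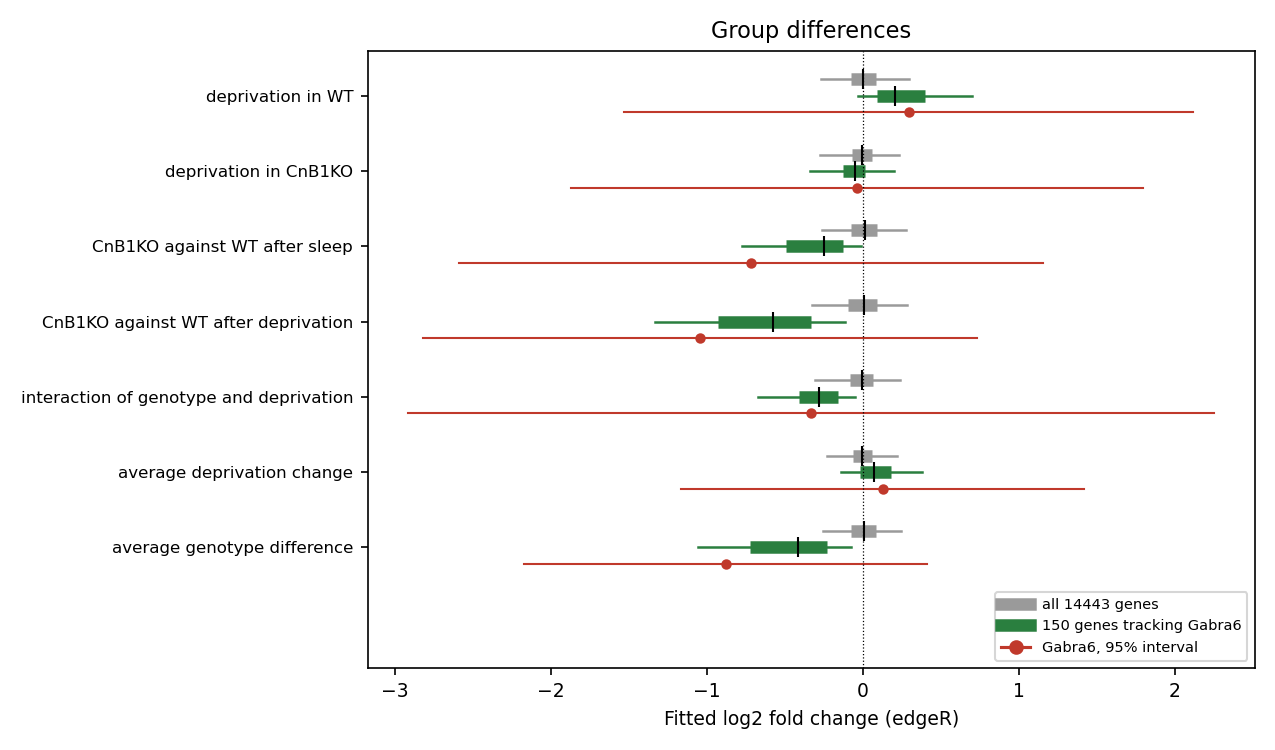
Fitted log2 fold change in the 7 comparisons: thick bars span the middle 50% and thin lines the 5th to 95th percentile of the genes, with a tick at the median, for all 14443 genes (grey) and the 150 genes (green); red points are Gabra6 with its 95% interval. The median of the 150 genes is -0.42 in the average genotype difference and 0.20 for deprivation in WT, and every interval of Gabra6 includes 0.

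No gene of the set had groups that did not overlap. Among all genes, libraries of the compared groups were fully apart in 5.09% for deprivation in WT, 2.33% for deprivation in CnB1KO, 4.15% for genotype after sleep and 1.82% for genotype after deprivation. For the 150 genes the count was 0 in each of the 4.

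Lists of other cells are given beside the average genotype difference, in which all 150 genes were on the negative side. In that comparison 3.09% of all genes passed. The noradrenergic list had a median of 0.13, with 0 of 12 genes passing, and its summed level ran from 781 to 1876 CPM in WT libraries and from 1137 to 1875 CPM in CnB1KO libraries. The oligodendrocyte list had a median of 0.18 with Mag and Ermn higher in CnB1KO, 2 of 12 genes, and ran from 1995 to 2468 CPM in WT and from 2140 to 3087 CPM in CnB1KO. The astrocyte list had a median of 0.12 with 0 of 10 genes passing. The microglia list had a median of 0.10, with C1qa and C1qc higher, 2 of 10. Of 8 endothelial genes, 5 were higher (Cldn5, Pecam1, Flt1, Kdr and Slco1a4), with a list median of 0.31. No gene of the noradrenergic, oligodendrocyte or microglia list was at 0 in any library. The summed granule list ran from 2903 to 6821 CPM in WT and from 2898 to 5154 CPM in CnB1KO, with 0 of 36 genes passing, and 0 of 35 Purkinje genes passed. Of the 24 granule cell transcription factors Mef2c was lower (-0.37, adjusted p = 0.0468 by edgeR), and of the 15 GABA-A receptor subunits Gabra2 was higher (0.54, adjusted p = 0.00659 by edgeR), neither of them in the set. The part of these shifts in each other was not tested.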

How the data were processed

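The authors deposited read counts per gene as whole numbers for 14443 symbols, 1 table for all 19 libraries, and FPKM (fragments scaled for gene length and library total) in 1 table per group, per the file headers. Among the tools in the submitters' processing notes, listed without role or order, are HTSeq 2.0.4, StringTie 2.2.1 and Picard 2.18.29, with the build GRCm38. No source used here gives the aligner or says whether duplicate reads were removed. All but 1 of the 150 genes had FPKM on 1 line in all 4 tables.

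The 150 genes, the gene lists, the rule for naming genes, the tests and the alternatives were chosen with earlier results of these data known. Named genes are Gabra6, the 15 genes with the highest r, members of the lists, list genes and others just outside the threshold, and the 3 smallest p of each comparison, without provisional symbols.

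CPM used column totals of the counts. Group differences were fitted to the deposited counts with edgeR 4.0.16 in R 4.3.3 (TMM scaling, quasi-likelihood F test, 2-sided) over all 19 libraries in 4 groups without covariates, 15 residual degrees of freedom. The filter filterByExpr kept all 14443 genes, and p-values were adjusted over all of them by Benjamini and Hochberg. The comparisons share libraries. Counts for the real genes were simulated with known changes to test the fit. Every simulated gene had a dispersion of 0.0121, against a median of 0.156 in the set. Whether the fit finds changes in genes as variable as the set was therefore not tested. Permutation tests used 100000 resamples. Alternatives were RLE factors, column totals, no filter, a mean count of at least 100, log2 library total as covariate, limma 3.58.1 (voom, and on log2(FPKM + 1) and log2(FPKM + 0.1)), DESeq2 1.42.0, the 2 compared groups alone and each library left out. Where a pseudocount is added, fold changes of low genes are understated. Counting intervals cover counting error only, since the reads carry no molecular identifiers. Positions and overlaps come from GENCODE M21, and promoters from RefSeq. A few genes are not reported here.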

Additional observations from a re-analysis of the deposited data

Results flagged for a closer look

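Dixon's 95% limit was applied to 42 genes named in the text, as 168 gene and group combinations. In 6 of them 1 library lay farther from the others than the limit allows. Chance gives about 1 in 20 where combinations are independent. These genes were chosen to rise and fall with Gabra6, so the combinations are not independent and the 6 are not separate observations. In every case the library was the highest of a CnB1KO group. In CnB1KO_SD6 the highest library stood at 47.3 CPM for Crtam, 41.6 CPM for Ltbp2, 69.4 CPM for Il16 and 58.4 CPM for Pax6. In CnB1KO_S6 it stood at 60.0 CPM for Ltbp2, a TGF-beta binding protein of the extracellular matrix, and at 69.9 CPM for En2.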

How the results depend on the processing

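No paired analysis was possible because the column heads carry library numbers 1 to 20 and not the replicate numbers of the labels. Of the 150 genes, 102 to 145 were chosen again under the 11 other ways of building the set, lowest with Pcp2 as the starting gene and 105 with Spearman's correlation. Leaving out 1 library kept 112 (without WT_SD6 library 10) to 147, with 117 without CnB1KO_SD6 library 20, and 87 genes were kept throughout. The count of the set passing the average genotype difference was 1 with DESeq2, 0 in the other fits of all libraries, and 0 to 3 without 1 library. In the other 6 comparisons it was 0 under every alternative run. The Gabra6 change for deprivation in WT was -0.60 with limma voom, -0.25 on log2(FPKM + 1) and -0.43 on log2(FPKM + 0.1), and averaged over genotypes -0.77, -0.42 and -0.83. For deprivation in CnB1KO it ran from -1.23 to 0.079 under the alternatives other than leaving out 1 library, highest with library total as covariate. Why the log-scale fits differ in sign was not tested, and the cause was not tested for the covariate either. Without 1 library the Gabra6 change was -0.092 to 0.69 for deprivation in WT, -0.88 to 0.49 in CnB1KO, -1.18 to 0.19 for the interaction and -0.30 to 0.39 for the average deprivation change. The 3 genotype values of Gabra6 kept a negative sign throughout, -0.68 to -1.43 for the average. Depth limits Gabra6 in library 20, with 3 counts, and 15 genes of the set had 3 counts or fewer in at least 1 library.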
